A study of Caenorhabditis elegans with 2 samples.

Results

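The 34 genes described here encode subunits of the mitochondrial respiratory chain and of ATP synthase in the nematode Caenorhabditis elegans. They were chosen by name, with no measured value in the rule, and comprise 8 genes of complex I, 4 of complex II, 6 of complex III, 7 of complex IV and 9 of complex V. They were read against all 19973 protein-coding genes of the nuclear genome. Occupancy by the NF-Y subunit NFYA-2 was measured by chromatin immunoprecipitation and sequencing (ChIP-seq) with an anti-GFP antibody in whole young adults. The worms, of strain RW12238, carry st12238[nfya-2::TY1::EGFP::3xFLAG] I, an insertion made by CRISPR at nfya-2 itself. Both libraries, biological replicates of 1 group, came from worms collected at 64 hours, which had been bleached and held as starved L1 larvae beforehand. Chromatin had been sheared to fragments of 200 to 800 bp. With neither a second genotype or stage nor an untagged sample to set them against, no difference between conditions was tested. Whole worms were used, so strong occupancy in a few tissues and weak occupancy in many cannot be told apart.

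NF-Y is a trimer of A, B and C subunits. The B and C subunits pair through histone folds, and the A subunit gives the trimer its contact with the pentamer CCAAT. In mammals NF-Y is known for binding promoters a short way upstream of the start, many of them of widely expressed genes. The respiratory chain passes electrons from NADH at complex I and from succinate at complex II to complex III, then through cytochrome c to complex IV, where oxygen is reduced. Complexes I, III and IV move protons across the inner mitochondrial membrane, and complex V, the ATP synthase, uses that gradient to make ATP. The genes described here are all nuclear. Other subunits are encoded by the mitochondrial genome, on which none of the 8 deposited lists had a region.

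For each gene, the strongest region was taken from the authors' ranked list of 71547 regions, provided that its summit lay between 1000 bp upstream and 200 bp downstream of the gene start. The signal quoted throughout is the authors' own value for a region, with no unit, and is used only to rank and describe regions within a list. Values from the replicates' own lists are set side by side as they stand, since the scale of each list is unknown. They are the strongest in the same window, and their summits lay inside the region named for the gene in 21 of 22 cases in replicate 1 and 16 of 20 in replicate 2. Beside it stands the authors' irreproducible discovery rate (IDR) for the region, which is low where the ranking was repeatable. In addition, 4 shorter lists hold the regions that the authors kept after a threshold: 281 conservative peaks, 435 peaks called pooled here, 92 peaks of replicate 1 and 90 of replicate 2. A gene with no ranked region in its window was given a signal of 0 for medians and ranks. Read depth is unknown, because the lists carry no read counts.

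Of the 34 genes, 2 had a conservative peak, the complex IV genes cox-5A and cox-6A, which is 5.88% against 0.726% of all coding genes. Another complex IV gene, cox-5B, joined them in the pooled list, giving 3 of 34 or 8.82%, against 0.961% of coding genes. None of the 34 was in the thresholded list of replicate 1, which held 0.305% of coding genes. In that of replicate 2 the one member was cox-5A, or 2.94%, against 0.255% of coding genes. The other 31 genes had no thresholded peak in any of the 4 lists. No test was applied to these counts, which are small, and the window decides 1 peak: when it was narrowed to 500 bp upstream and 100 bp downstream, cox-6A lost its peak, which left 1 conservative peak, against 0.491% of coding genes, and 2 pooled peaks, against 0.601%.

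The DNA around the summit of cox-5A is shown because it is the strongest region of the 34 genes. It is 121 bases of the plus strand, WBcel235 reference (RefSeq sequence), chrIII:12905142-12905262, centred on the summit, and capitals mark the word CACGC.
cox-5A: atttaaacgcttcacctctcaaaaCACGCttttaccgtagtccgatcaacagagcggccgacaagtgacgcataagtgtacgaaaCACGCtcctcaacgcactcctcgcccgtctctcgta
The cox-5A stretch has 2 copies of CACGC, with centres 34 bp before and 27 bp after the summit, and no CCAAT on either strand within 100 bp.

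cox-5A encodes a structural subunit of cytochrome c oxidase, the enzyme that hands electrons to oxygen. Its region (chrIII:12905082-12905321) lay 289 bp upstream of the start and had a signal of 85.9, with an IDR of 0.00156. Only 0.280% of coding genes had a strongest region as high. In the lists of the separate replicates, its signal was 30.6 in replicate 1 (IDR 0.0907) and 55.7 in replicate 2 (IDR 0.00343). The nearest other gene start, that of the neuropeptide gene flp-14, was 5308 bp away, and the summit lay in no annotated gene. All 31-base words within 100 bp of the summit occurred once in the genome.

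cox-6A, another oxidase subunit gene, had the second signal, 81.5, with an IDR of 0.00168. Its signals were 34.2 in replicate 1 (IDR 0.0690) and 43.0 in replicate 2 (IDR 0.0110), so replicate 1 placed it above cox-5A and replicate 2 below it. The summit of this region, on chromosome III, was 905 bp upstream of cox-6A and inside an exon of F54D8.7, an annotated snRNA gene on the minus strand, 79 bp from that gene's start. The annotation gives the same name to 3 snRNA genes. Of the 31-base words within 100 bp of the summit, 47.4% occurred more than once in the genome. Among the 25 members with a region, a share above 0 was otherwise found only at sdhd-1, where it was 24.0%. A further region of the ranked list had its summit 207 bp downstream of the cox-6A start, just outside the window, with a signal of 30.5 and an IDR of 0.383. The nearest other coding start, that of alh-1, was 3055 bp from the strong summit. To which of the genes the signal belongs was not tested.

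cox-5B encodes a further subunit of the same oxidase and had its summit 12 bp upstream of the start. Its signal was 56.7, with 25.4 in replicate 1 and 30.5 in replicate 2, and 1.04% of coding genes were as high. Its IDR was 0.0166 in the list behind the conservative peaks and 0.00829 in the list behind the pooled peaks, and only the pooled list kept it. There was no CCAAT within 100 bp of this summit. The GC content there was 52.7%, the highest of the members, which had 40.4% ± 5.23 (SD, n = 25 regions), against 38.5% ± 7.02 over the strongest regions of all coding genes (n = 12245). cox-4, the fourth oxidase gene with a region, had a signal of 40.3 (IDR 0.224) at 137 bp downstream of its start, inside its own exon. Its values were 24.2 and 17.4 in replicates 1 and 2. The remaining oxidase genes cox-6B, cox-6C and cox-7C had no ranked region in the window, so complex IV held the 3 strongest members and also 3 genes with none.

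**Figure D1:**
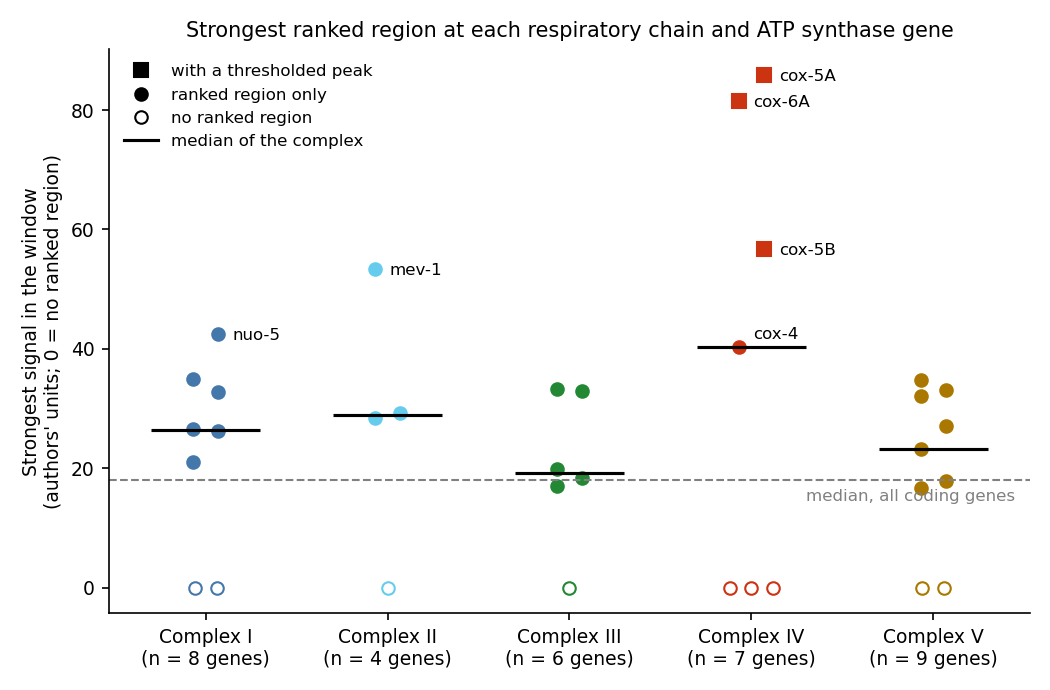
Strongest signal in the promoter window of each of the 34 genes, by complex, in the authors' units; open circles at 0 are genes without a ranked region, squares are genes with a thresholded peak, black lines are the medians of each complex and the dashed line is the median of all coding genes (18.04). The 3 squares, cox-5A, cox-6A and cox-5B, all belong to complex IV, between 56.7 and 85.9.

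Succinate dehydrogenase, complex II, held the strongest gene without a thresholded peak. mev-1, which encodes its cytochrome b subunit and is known for mutants that are hypersensitive to oxygen and short-lived, had a signal of 53.37 with an IDR of 0.0261. Its replicate signals were 23.4 and 30.6 in replicates 1 and 2, close to those of cox-5B, and 1.36% of coding genes were as high. The summit lay 151 bp upstream of mev-1 but 108 bp from the start of jmjd-4, a demethylase-family gene that runs in the opposite direction, with 259 bp between the starts. The same region was the strongest for both genes. sdha-1, the flavoprotein subunit, was the weakest of the complex II genes with a region, with a signal of 28.5 (IDR 0.381) at 317 bp upstream, and values of 16.5 and 17.1 in replicates 1 and 2. The anchor gene sdhd-1 was at 29.2, and the iron-sulphur subunit gene sdhb-1 had no region. The median of the 4 genes was 28.9, and none of their 3 regions held CCAAT within 100 bp of the summit.

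Complex I, NADH dehydrogenase, had a median of 26.4 over 8 genes, with 6 regions and 2 genes, nuo-2 and lpd-5, without one. nuo-5, whose mammalian counterpart lies in the arm where electrons enter, was the highest at 42.5 (IDR 0.208). Its summit was 139 bp downstream of the start, inside the gene, and the replicate signals were 18.7 and 21.3 in replicates 1 and 2. This placed it among the top 4.31% of coding genes, although its IDR was well above those of the 3 oxidase genes with peaks. nuo-4, a peripheral subunit, was the lowest of those with a region, at 20.96 (IDR 0.835), and appeared in the replicate 2 list alone, at 13.4. Its summit was 806 bp upstream, inside an exon of rnp-7. The other 4 regions, at nuo-1, nuo-3, nuo-6 and gas-1, ran from 26.3 to 34.9. gas-1, which encodes a core subunit at the quinone end and is named for altered sensitivity to volatile anaesthetics, was the lowest of these.

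Complex III had the lowest median, 19.1 over 6 genes, close to the 18.04 of all coding genes. Its highest value was 33.3 (IDR 0.549) at ucr-2.2, one of 3 genes for core protein 2, with 12.6 and 16.7 in replicates 1 and 2. The summit was 387 bp upstream of ucr-2.2, inside an exon of ocr-3. The lowest region was that of cyc-1, the cytochrome c1 gene, at 17.1 (IDR 0.835). Its summit was 940 bp upstream, inside an exon of the gene before it, C54G4.9. A region of nearly the same signal, 16.97, had its summit 258 bp upstream. The strongest regions in the replicate lists, at 13.0 and 15.9 in replicates 1 and 2, had their summits outside the first region. isp-1, the gene for the Rieske iron-sulphur protein, whose mutants are known for long life, had no region in the window. The nearest ranked summit to its start was 316 bp downstream, with a signal of 15.03. All 5 regions of complex III had an IDR above 0.5.

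Complex V had a median of 23.3 over 9 genes and no value above 34.7. That value belonged to atp-1, which encodes the alpha subunit of the catalytic head, with an IDR of 0.413. Its replicate signals were 19.9 and 14.5 in replicates 1 and 2, and its summit lay 954 bp upstream inside an exon of the neighbouring gene mcrs-1. atp-2, which encodes the beta subunit that carries the catalytic sites, was near the bottom at 17.8 (IDR 0.835), and neither replicate list had a region in its window. asb-1, the germline paralogue of the subunit b gene, was the lowest member with a region, at 16.6 (IDR 0.835), with 8.75 in replicate 1 and no region in replicate 2. Its somatic paralogue asb-2 was at 23.3, with 15.6 in replicate 1 and, at another place in the window, 21.4 in replicate 2. atp-4 and asg-1 had no region. Replicate 1 had a region for 7 of the 9 ATP synthase genes, while replicate 2 had one for 3.

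Ordered by median, complex IV came first at 40.3, followed by complex II at 28.9, complex I at 26.4, complex V at 23.3 and complex III at 19.1. The order depended on the list and the window. With replicate 1 signals alone complex IV was first at 24.2, and with replicate 2 signals alone complex II was first at 18.8 and complex IV second at 17.4. With the narrower window of 500 bp and 100 bp, complex III was first at 19.1, while complexes I and IV fell to 0 because too few of their genes then had a region. Each complex had between 4 and 9 genes, and no difference between complexes was tested.

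Over all 34 genes, 25 or 73.5% had a ranked region in the window, against 61.3% of coding genes. The median signal was 26.4, against 18.04 for all coding genes, and the median member had 28.3% of coding genes at or above it. 22 members exceeded the coding median, and 6 were within the top 10% of coding genes: the 4 oxidase genes with a region, mev-1 and nuo-5. The median IDR of the 25 was 0.514, against 0.651 for the strongest regions of coding genes, 13 of the 25 (52%, against 75.1% for coding genes) had an IDR above 0.5, and 4 (16%, against 2.65%) were at 0.05 or below. Those 4 were cox-5A, cox-6A, cox-5B and mev-1.

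**Figure D2:**
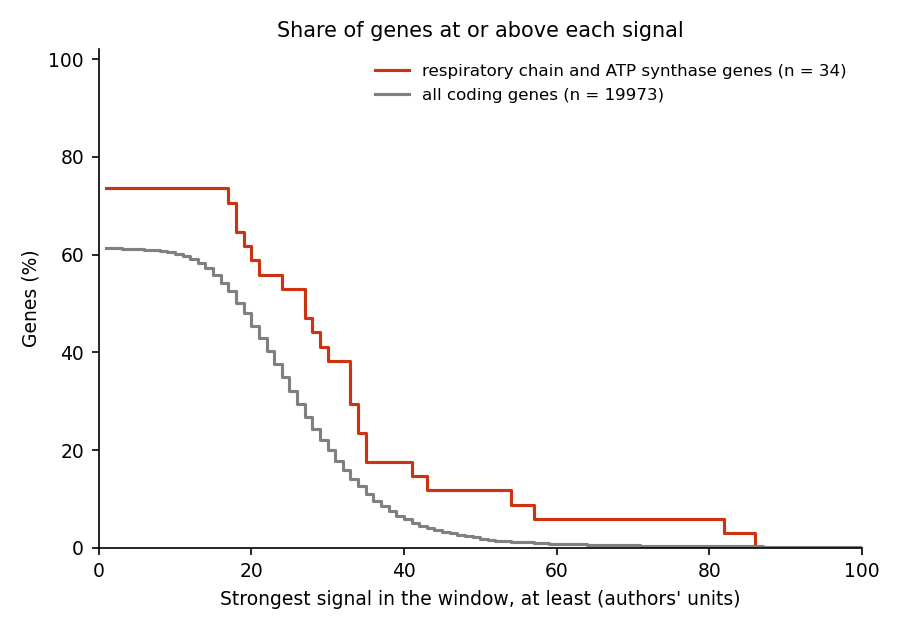
Share of genes (y axis, %) whose strongest signal in the window is at least the value on the x axis (authors' units, shown up to 100), for the 34 members in red and all 19973 coding genes in grey. The red line lies above the grey one from a signal of 1, 73.5% against 61.3%, to one of 85, and below it from 86 on.

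The 9 genes without a region in the window were nuo-2, lpd-5, sdhb-1, isp-1, cox-6B, cox-6C, cox-7C, atp-4 and asg-1. For all 9, the nearest ranked summit was downstream of the start. The window favours this, because genes without a region lack summits up to 1000 bp upstream but only up to 200 bp downstream. The share over coding genes without a region was not computed. It was nearest at asg-1, which encodes subunit g of ATP synthase, 304 bp downstream with a signal of 44.8. It was farthest at nuo-2, which encodes a core complex I subunit, at 2668 bp with a signal of 29.8.

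The replicates differed in which members they listed. Replicate 1 had a region in the window for 23 members, 67.6% against 45.8% of coding genes, and replicate 2 for 21 members, 61.8% against 51.1% of coding genes. Of the 34 members, 18 were in both lists, 8 in one and 8 in neither. Of the 19973 coding genes, 5703 were in both, 7941 in one and 6329 in neither. Members were thus in both lists more often than coding genes, and in only one list less often. The order at the upper end differed. In replicate 1 it was cox-6A at 34.2, cox-5A at 30.6, cox-5B at 25.4, cox-4 at 24.2 and mev-1 at 23.4, and in replicate 2 it was cox-5A at 55.7, cox-6A at 43.0, mev-1 at 30.6 and cox-5B at 30.5.

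**Figure D3:**
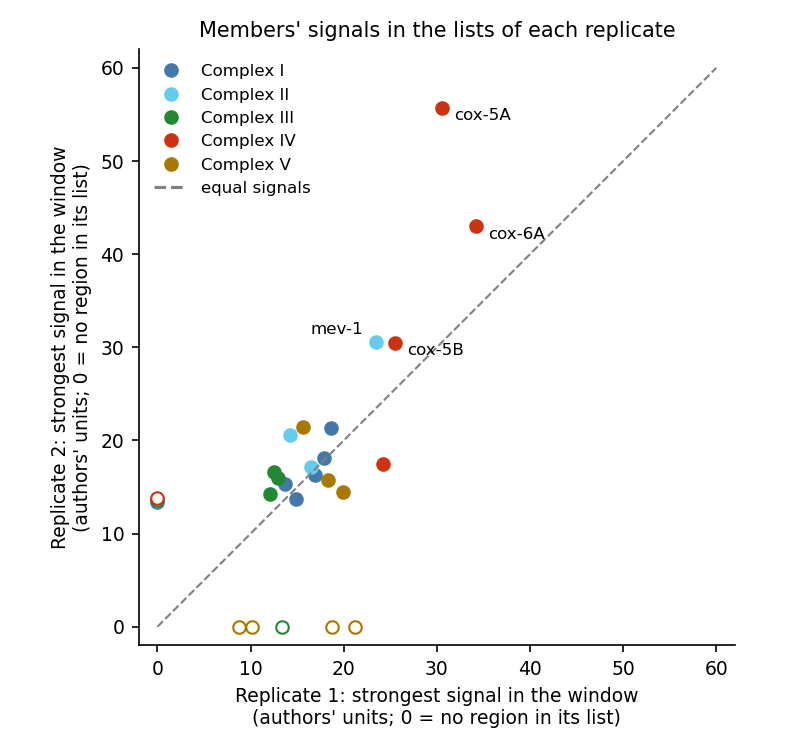
Strongest signal of each member in the replicate 1 list (x axis) and the replicate 2 list (y axis), in the authors' units, coloured by complex; open circles at 0 on an axis are members missing from that replicate's list, and the dashed line marks equal values of lists whose scales may differ. cox-5A and cox-6A stand apart at the upper right, at 30.6 and 34.2 in replicate 1, and all open circles lie at or below 21.2.

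The window reaches 1000 bp upstream and 200 bp downstream, so a majority of upstream summits follows largely from the rule. 22 of the 25 summits were upstream of the start and 3 were downstream, and the median distance to the start was 269 bp, against 372 bp for coding genes. 11 were within 300 bp upstream. 8 were more than 700 bp upstream, and 5 of those 8 were nearer to another coding gene's start than to the member's. 11 of the 25 summits lay in the body of another gene, 7 of them in an exon. Apart from the median distance, these positions were not counted over all coding genes, so they cannot be read as particular to the members.

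**Figure D4:**
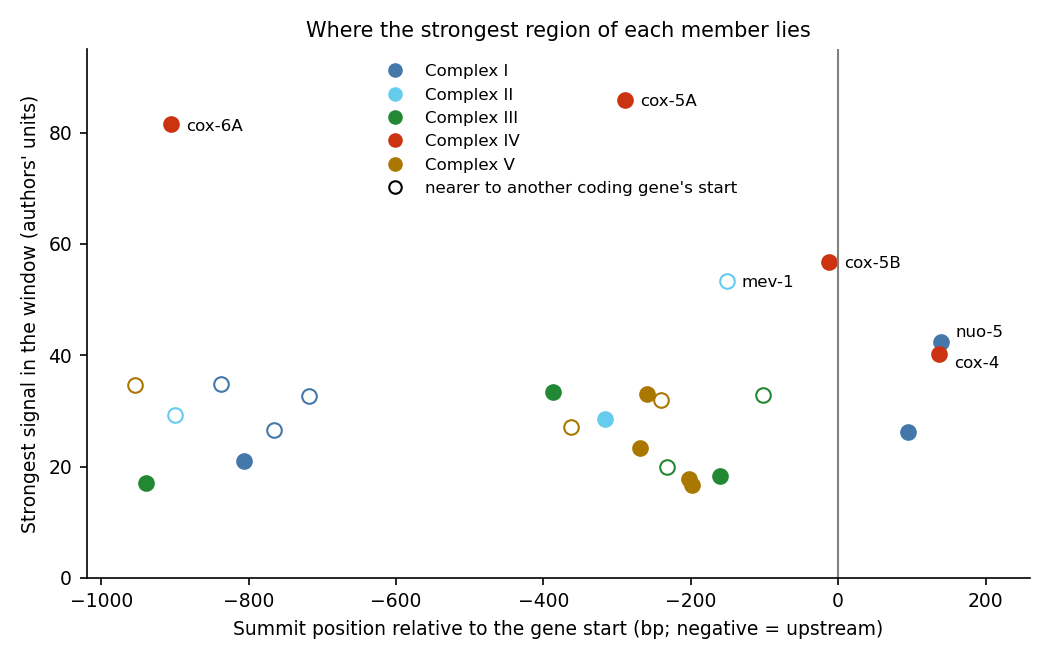
Position of the strongest region's summit relative to the gene start (x axis, bp, negative upstream) against its signal (y axis, authors' units) for the 25 members with a region, coloured by complex; open circles are regions nearer to another coding gene's start. The 4 oxidase genes are filled and lie between 40.3 and 85.9, while mev-1 at 53.37 is open. Non-coding starts were not counted, so cox-6A is filled although an snRNA gene starts 79 bp from its summit.

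Many of the genes have a close neighbour. 21 of the 34 genes, 61.8% against 17.7% of coding genes, had a coding gene starting in the opposite direction within 1000 bp upstream. A further measure, a gene on the same strand ending within 500 bp upstream, was met by 8 of the 34 genes, 23.5% against 18.1% of coding genes. 10 of the 25 strongest regions, 40% against 17.5% for coding genes, were nearer to another coding start than to the member's own. None of these 10 belonged to complex IV, but only coding starts were counted. The cox-6A summit was nearer to the start of the snRNA gene F54D8.7, at 79 bp, than to that of cox-6A, at 905 bp. 7 of the 21 opposite genes had the same region as their own strongest: jmjd-4 with mev-1, rpl-36.A with nuo-1, arl-8 with nuo-3, nmat-1 with ucr-2.1, T24C4.5 with ucr-2.3, F27C1.2 with atp-3 and glr-6 with asg-2. At nuo-1, the summit was 85 bp from the start of rpl-36.A, a gene for a cytosolic ribosomal protein, and inside its exon, and 718 bp from that of nuo-1. None of the 21 opposite genes had a conservative peak, against 0.726% of all coding genes, a share at which none among 21 is unremarkable. How often opposite genes share a strongest region was not computed over all coding genes.

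When each region was given only to the coding gene with the nearest start, 15 of the 34 genes kept a region, 44.1% against 53.2% of coding genes, so the members then stood below the coding genes and not above them. With fewer than 50% having a region, their median was 0, against 13.0 for coding genes. The counts of peaks did not change: conservative peaks stayed at 2 of 34, against 0.546% of coding genes, and pooled peaks at 3, against 0.711%. Only coding starts competed, so the cox-6A peak could not go to the snRNA gene F54D8.7. That gene's start was 79 bp from the summit, against 905 bp for cox-6A. The members' higher median thus moves with the regions that lie nearer to a neighbour, and to which gene those belong was not tested.

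CCAAT on either strand was found within 100 bp of the summit in 10 of the 25 regions, 40%, against 35.6% of the strongest regions of all coding genes. With 50 bp on either side the counts were 7 of 25, 28% against 20.9%, and with 200 bp they were 14 of 25, 56% against 58.8%. The 10 regions were those of nuo-1, nuo-3, nuo-5, cyc-1, ucr-1, ucr-2.1, cox-6A, atp-1, atp-3 and asb-2. At nuo-1 the word was 4 bp from the summit, the closest of all, and asb-2 had 2 copies, 17 and 50 bp away. Among the 3 genes with a thresholded peak, cox-6A had the word and cox-5A and cox-5B did not. The extended consensus RRCCAATSR (R for a purine, S for G or C) was in none of the 25 regions, against 2.39% of those of coding genes. At that share, none among 25 is unremarkable. A match is a description of the letters and says nothing about binding.

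Seen from the genes' starts, 14 of the 34 had CCAAT within 300 bp upstream, 41.2% against 45.1% of coding genes. The longer window of 500 bp gave 22 of 34, 64.7% against 64.2%, and the shorter one of 200 bp gave 9, 26.5% against 32.2%. By complex, the counts at 300 bp were 4 of 8 in complex I, 0 of 4 in complex II, 5 of 6 in complex III, 2 of 7 in complex IV and 3 of 9 in complex V. Complex III thus had the largest share with the word. It was the lowest by median signal in the main window, which reaches 1000 bp upstream, but first with the window of 500 bp and 100 bp. The extended consensus was upstream of 1 of 34 genes, 2.94% against 2.35% of coding genes.

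That gene was nuo-3, which encodes a peripheral complex I subunit and was singled out after its values were seen. The 29 bases around the site are given for it because no other member promoter has one. They are from the plus strand of chrIV:14797570-14797598, and capitals mark the consensus, which reads on the minus strand, the strand of nuo-3.
nuo-3: agcggtcgttCGATTGGCTccttgtcgca
The site is centred 40 bp upstream of nuo-3. The strongest region of nuo-3 was elsewhere: its summit was 726 bp from the site, 766 bp upstream of nuo-3 and 161 bp from the start of arl-8, with a signal of 26.5 (IDR 0.514). The value was 13.7 in replicate 1 and, at another place in the window, 15.3 in replicate 2.

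**Figure D5:**
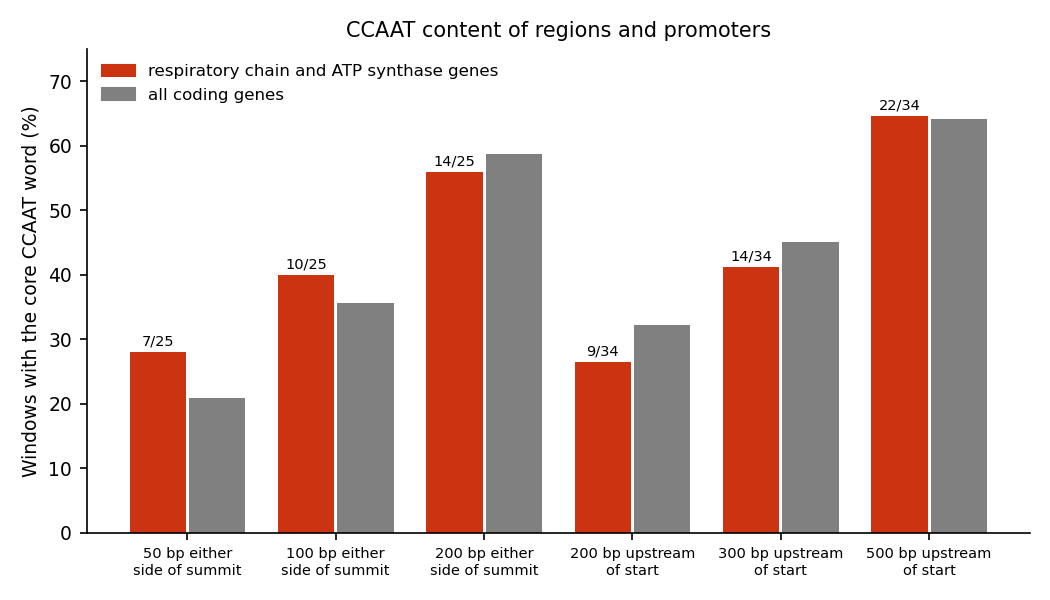
Share of windows (y axis, %) with at least 1 CCAAT on either strand, for members in red (count over total above each bar) and all coding genes in grey, in windows around the summit of the strongest region and upstream of the gene start. The bars differ by less than 8 percentage points in every window, and neither group is higher throughout.

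CACGC and CGCGC were searched as well, because earlier results on these peaks had named them; both strands were read, and hits of CGCGC on opposite strands overlap. Within 100 bp of the summit, CACGC was in 5 of 25 regions, 20% against 14.2% of those of coding genes, and CGCGC in 6 of 25, 24% against 11.99%. One word or the other was in 10 of 25, 40% against 22.5%. Among the members with the highest signals, cox-5A had 2 copies of CACGC, cox-6A 1 of CACGC and cox-5B 4 hits of CGCGC at 2 places. mev-1 had 1 of each word, cox-4 had 1 of CGCGC and nuo-5 had neither. Because both words were named from these same peaks, their presence at cox-5A, cox-6A and cox-5B is not independent evidence for them. Shares over coding genes' regions of similar signal or GC content were not computed.

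Beyond the 34, 51 other nuclear genes of the same pathway were read in the same way: further subunits of complexes I, II, III and V, core and accessory, cytochrome c, and assembly factors. 1 of them had a conservative peak, 1.96% against 0.726% of coding genes, and none had a peak in the other 3 thresholded lists. That gene was ndub-8, for an accessory subunit of complex I, with a signal of 57.4 at 163 bp upstream, an IDR of 0.00816, and 27.1 and 33.7 in replicates 1 and 2. The next were cyc-2.1, one of the cytochrome c genes, at 53.04 with an IDR of 0.693, and C16A3.5, a complex I gene, at 51.4 with an IDR of 0.327. At cyc-2.1 the summit was 347 bp from the start of the ribosomal protein gene rpl-20, nearer than the 419 bp to its own. The 51 genes had a region in 30 cases, 58.8%, and a median signal of 15.6, both below the 34 members and the coding genes.

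Other gene groups give the scale of the members' signals. Among 18 mitochondrial chaperone, protease and import genes, the median was 26.7, near the 26.4 of the members, but hsp-60, the mitochondrial chaperonin gene, and Y22D7AL.10 opposite it share a region of 2245, found in all 4 thresholded lists. That is far above the 85.9 of cox-5A. The 81 cytosolic ribosomal protein genes had a median of 24.7, with 8 conservative peaks. The share with such a peak was 9.88% for them and 11.1% for the 18 mitochondrial genes. The latter rests only on the region that hsp-60 and Y22D7AL.10 share, which is counted for both genes. The share was 5.88% for the members, from separate peaks at cox-5A and cox-6A, and 1.96% for the 51 other pathway genes. An opposite coding gene within 1000 bp was found for 48 of the 81 and 21 of the 34 members. The counts were 22 of the 51 and 4 of the 18.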

How the data were processed

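ChIP-seq of NFYA-2::eGFP was deposited as peak lists on assembly ce11, derived from filtered alignments and a control, per the text accompanying the files. Which aligner and which peak caller made them is not given in the sources used here. The deposited signal is the authors' value per region and the IDR was deposited as −log10. The series lists were used for members. What the IDR of the pooled and per-replicate lists compared was not established. Replicate signals came from the per-replicate lists, and 32 columns of per-sample values (8 in each of 4 ranked lists) named no sample and were not used.

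Genes came from Ensembl release 115 (WBcel235, the sequence of ce11): 46890 nuclear genes, 19973 of them coding. All 34 names matched. Windows follow the strand. Ranks are shares of coding genes with a signal at least as high. Words were searched on both strands of the RefSeq genome. Values were computed with Python 3.11.15, numpy 2.4.6 and pandas 2.3.3, and the assignment was tested on simulated regions.

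Genes named with full values were those with a thresholded peak, the 5 strongest, the 3 weakest with a region, and the strongest and weakest with a region of each complex. Others were named where a small count or a neighbour called for it, after their values were seen. Members, lists and words were chosen with earlier results of these data known. No p-value was computed, since there is 1 group of 2 replicates. Depth per sample is unknown, so no counting error is given. The sequence at the cox-6A summit is not reported here.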

Additional observations from a re-analysis of the deposited data

How the results depend on the processing

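Conservative peaks stayed at 2 of 34 with a window reaching 2000 bp upstream, any transcript start, overlap in place of the summit, the stronger 50% of the list, or regions given to the nearest coding start only (added after seeing the data), and fell to 1 with the window of 500 bp and 100 bp. Pooled peaks were 2 in place of 3 with that window and with the stronger 50% of the list, and 3 in the other settings on the series lists. Single-replicate lists gave 0 (replicate 1) to 1 (replicate 2, cox-5A) in place of either count. The median member signal of 26.4 became 0 with the window of 500 bp and 100 bp (fewer than 50% of members and of coding genes then had a region), 29.7 with 2000 bp, 27.8 with any transcript start, 28.9 with overlap, 32.04 among genes with a region, and 0 with regions given to the nearest coding start only. It was 13.56 to 14.04 in single-replicate lists, whose signals are not on the series scale. The pooled ranked list gave 26.4. The cause was not tested beyond what each setting changes by construction. The pooled ranked list and the restriction to genes with a region cannot change a count of thresholded peaks, so neither was run for it. No paired analysis was possible because there is 1 group. The limits are the unknown depth, 2 replicates, no untagged sample in the analysis, short lists in which 1 gene moves a share by nearly 3 percentage points, and regions shared with neighbouring genes.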
